A study of Mus musculus with 15 samples.

Results

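The genes of glucose transport and glycolysis were examined in hearts of mice with and without type 2 diabetes. The 34 genes were taken by name: transporters, the enzymes of each glycolytic step, lactate and pyruvate dehydrogenase, the pyruvate dehydrogenase kinases and phosphatase, and the enzymes of glycogen turnover with the muscle fructose bisphosphatase. Each gene was read from the probe of its symbol that was brightest in heart. Of the 34 genes, 33 were named on the array, which holds 27845 distinct gene names, and the probes of all 33 were among the 27593 tested of 41174 distinct probes. The control group held 5 hearts of db/+ littermates (genotype C57BL/KLS-leprdb/lepr+), which carry one mutant and one working leptin receptor allele. The second group held 5 hearts from untreated db/db mice (C57BL/KLS-leprdb/leprdb), and the third 5 hearts from db/db mice that received rosiglitazone in chow at 5 mg/kg/day for 4 months. All groups therefore carry the leprdb allele, and db/db mice lack a working leptin receptor in every tissue rather than in the heart alone. RNA came from whole hearts, so that fewer cells of a type and less RNA per cell cannot be told apart. Each heart RNA, labelled with Cy5, was hybridised on an Agilent mouse array beside a Cy3-labelled universal mouse reference RNA, and values are log2 heart/reference ratios.

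Glucose enters heart muscle through the insulin-responsive carrier GLUT4 and the basal carrier GLUT1, is trapped by hexokinase, and is committed to glycolysis by phosphofructokinase. Fructose 2,6-bisphosphate, which is made and broken down by the bifunctional PFKFB enzymes, is a strong activator of phosphofructokinase. Pyruvate then becomes lactate or enters mitochondria through pyruvate dehydrogenase, which its kinases switch off; the diabetic heart is known for burning fatty acids in preference to glucose. Rosiglitazone is an agonist of the nuclear receptor PPAR gamma and lowers insulin resistance.

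The 15 arrays had median heart signals of 158.7 to 302.5 and 56.4% to 75.6% of probes well above background. Ratios were compressed most on the db/+ replicate 2 array, whose slope on the mean of the other arrays was 0.902, against 0.935 for untreated replicate 5 and 0.95 to 1.047 for the rest. Rosiglitazone-treated replicates 3 and 4 differed by a median absolute log2 difference of 0.1148 in the heart channel, below the 0.2333 to 0.5692 of all other pairs within a group, and were averaged and counted as 1 sample. The tissue was checked by markers. All 8 cardiomyocyte markers were detected, none was called in any comparison, and their mean log2 ratio was 3.48 to 7.47 in db/+ hearts, 4.74 to 6.96 in untreated and 6.13 to 6.54 in treated db/db hearts. Of 8 hepatocyte markers 5 could be tested, and in untreated db/db against db/+ hearts all 5 differences were positive and 2 were called (Apoa2 and Ahsg); Alb, the defining marker, was not named on the array. Of 5 adipocyte markers tested, 2 were lower in both db/db groups, and their mean log2 ratio was 2.14 to 3.41 in db/+, 1.13 to 2.89 in untreated and 1.08 to 1.46 in treated hearts. The part of adipocyte RNA in the results that follow was not tested.

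Few of the 33 genes differed between groups by their brightest probes, and those that passed the test were all higher in db/db hearts. In untreated db/db hearts, 2 of 33 genes were higher than in db/+ hearts and none was lower: Pfkfb1 and Gys1, which encodes muscle glycogen synthase. In rosiglitazone-treated db/db hearts, 4 were higher than in db/+ hearts and none was lower: these 2, the phosphofructokinase gene Pfkl and the lactate dehydrogenase gene Ldha. None passed between treated and untreated db/db hearts. The test was limma with Benjamini-Hochberg adjustment over all tested probes, at an adjusted p under 0.05. These counts leave out Pdp1, the listed gene that the array carries only under its older symbol, Ppm2c. That gene went the other way. With db/+ as the baseline, its brightest probe was lower after rosiglitazone, by -0.40 (limma adjusted p = 0.0242). Its second probe was lower in both db/db groups, as given below.

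These counts were read against all probes. Of all probes tested, 7.76% were called in untreated db/db against db/+ hearts (4.37% higher and 3.39% lower), and 6.06% of the 33 genes. Treated db/db against db/+ hearts gave 8.7% of all probes (4.49% higher and 4.21% lower) and 12.1% of the 33 genes. Both shares are near the background, so the number of called genes is not a result about this pathway. In treated against untreated db/db hearts 0 of all probes passed, although 2423 had an unadjusted p under 0.05, as did 3 of the 33 genes (Hk2, Ldhb and Eno1). The median log2 difference of the 33 genes was 0.12 in untreated against db/+ hearts, with 21 positive, 11 negative and 1 zero to 4 decimals. It was 0.06 for treated against untreated (19 positive, 14 negative) and 0.10 for treated against db/+ hearts (23 positive, 10 negative). Over all probes the medians were 0.0128, -0.0095 and 0.0053. The 3 comparisons share groups and are not independent. A moderated F test over the 3 groups called 7.94% of all probes and 2 of the 33 genes, Pfkfb1 (adjusted p = 0.00945) and Gys1 (adjusted p = 0.0410). Ppm2c, not among the 33, also passed this F test (adjusted p = 0.0387).

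**Figure D1:**
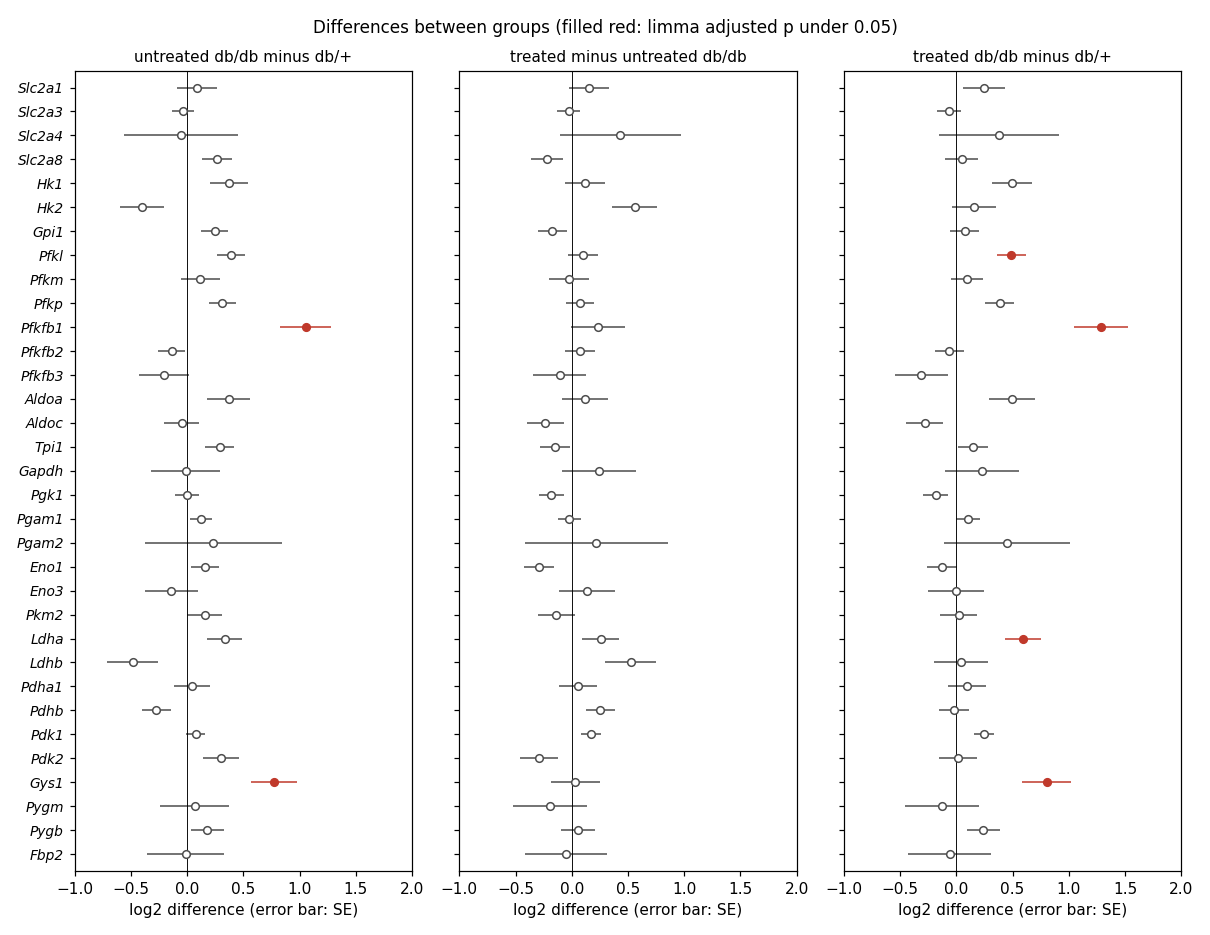
Log2 difference between groups for each of the 33 genes (horizontal axis), with its standard error, in the 3 comparisons; filled red points passed limma's adjusted p under 0.05. The filled points lie to the right of zero, 2 in the left panel, 0 in the middle panel and 4 in the right panel, and Pfkfb1 reaches 1.06 and 1.29.

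Slides, each with several arrays, were not balanced over the groups: slide 1 held 4 db/+ hearts, slide 2 held 1 db/+ and 3 untreated hearts, slide 3 held 2 untreated and 2 treated hearts, and slide 4 held 3 treated hearts. With slide as a fixed block no gene of the pathway passed in any comparison, and 34, 1 and 4 of all probes were called in untreated against db/+, treated against untreated and treated against db/+ hearts. Within slide 2, untreated minus db/+ was 1.25 for Pfkfb1, 0.19 for Gys1, 0.18 for Pfkl and 0.20 for Ldha. Across the 33 genes the median difference there was -0.0107, and 23 had the sign of the full comparison. Within slide 3, treated minus untreated was -0.24 for Pfkfb1, -0.20 for Gys1, -0.01 for Pfkl and 0.22 for Ldha. No slide held both db/+ and treated hearts. The slide-blocked difference between them was 1.01 for Pfkfb1, -0.01 for Gys1, 0.17 for Pfkl and 0.42 for Ldha. The differences of Pfkfb1 from db/+ were 1.25 and 1.01 with slides taken into account (adjusted p = 0.337 and 0.970), against 1.06 and 1.29 without, while those of Gys1 were much smaller. All these slide-based differences from db/+ rest on the 1 db/+ heart on slide 2, replicate 5. Its ratio was 1.08 for Pfkfb1 (db/+ range 0.99 to 1.80) and -0.11, the highest of the db/+ hearts, for Gys1. A slide effect and the level of that heart cannot be told apart here.

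**Figure D2:**
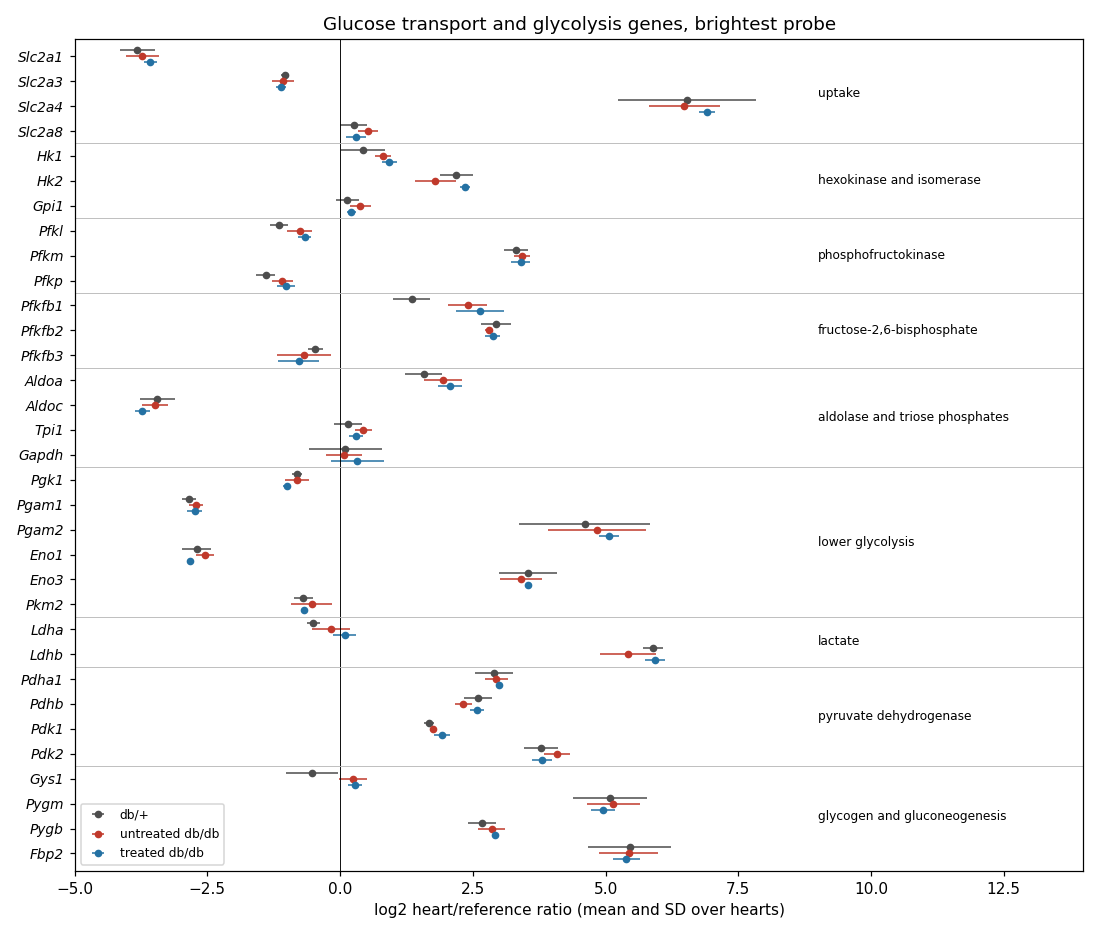
Mean log2 heart/reference ratio with SD over hearts for each gene in db/+ (grey), untreated db/db (red) and rosiglitazone-treated db/db hearts (blue), grouped by step; a ratio compares heart with the reference for 1 probe and does not rank genes. The groups lie close together for most genes, the ratio is 6.53 for Slc2a4 in db/+ hearts, and the widest db/+ bars are those of Slc2a4 (SD 1.29) and Pgam2 (SD 1.23).

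Slc2a4 encodes GLUT4. Its log2 ratios in db/+ hearts 1 to 5 were 6.65, 4.37, 7.73, 6.63 and 7.29. In untreated db/db hearts they were 5.90, 7.38, 6.05, 7.02 and 6.05. In treated db/db hearts they were 6.72, 6.91, 6.83, 7.05 and 7.09. The lowest ratio belonged to db/+ replicate 2, the groups overlapped, and the treated hearts lay closest together. On that db/+ array the heart signal was 6.47 and the reference signal 2.41, against medians over all arrays of 6.32 and -0.48. These signals are log2 minus the array's 75th percentile, with marked spots kept. Of the 10 Slc2a4 spots on the db/+ replicate 2 array, a share of 0.7 was marked as outliers and left out. That share was 0.6 for untreated replicate 3 and at most 0.3 on the other arrays. Means were 6.53 ± 1.29 (SD, n = 5), 6.48 ± 0.67 (n = 5) and 6.91 ± 0.15 (n = 4). Slc2a4 differed by -0.05 (SE 0.51) in untreated and 0.38 (SE 0.54) in treated db/db against db/+ hearts, and by 0.43 (SE 0.54) between the db/db groups, with adjusted p from limma of 0.963, 0.691 and 0.887. Leaving out db/+ replicate 2 moved the first value to -0.59 and the second to -0.16, still not called.

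None of the other carriers was called. Slc2a1 encodes GLUT1, and its ratio was -3.82 ± 0.34 (SD, n = 4) in db/+, -3.73 ± 0.31 (n = 5) in untreated and -3.57 ± 0.13 (n = 4) in treated db/db hearts. Slc2a3, for the high-affinity carrier GLUT3, lay at -1.05, -1.08 and -1.11. Slc2a8, for the intracellular carrier GLUT8, lay at 0.26, 0.52 and 0.31, with an adjusted p of 0.239 for untreated against db/+ hearts.

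Hexokinases phosphorylate glucose on entry, and the 2 genes measured had differences of opposite sign in untreated against db/+ hearts. Hk2, the insulin-responsive hexokinase of muscle, was 2.19 ± 0.32 (SD, n = 4) in db/+, 1.79 ± 0.39 (n = 4) in untreated and 2.35 ± 0.10 (n = 4) in treated db/db hearts. The difference of -0.40 between untreated and db/+ hearts had an adjusted p of 0.224. The difference of 0.56 between treated and untreated hearts, a 1.47-fold change, had an unadjusted p of 0.0152 and an adjusted p of 0.466. Hk1, the constitutive isozyme, was 0.43 ± 0.41 (n = 5), 0.81 ± 0.16 (n = 5) and 0.93 ± 0.14 (n = 4), with differences from db/+ of 0.37 and 0.49 and adjusted p of 0.184 and 0.0990. Gpi1, for the isomerase that makes fructose 6-phosphate, was 0.14, 0.38 and 0.21 and was not called.

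Among the brightest probes of the 33 genes, the clearest difference was in Pfkfb1, the PFKFB gene best known from liver and skeletal muscle. Dimmer probes of Pdk1 and Ppm2c, given below, had smaller limma adjusted p in untreated against db/+ hearts (0.00237 and 0.00616). Pfkfb1 log2 ratios in db/+ hearts were 1.80, 0.99, 1.27, 1.60 and 1.08. In untreated db/db hearts they were 2.01, 2.07, 2.90, 2.53 and 2.50. In treated db/db hearts they were 2.47, 2.07, 3.09, 3.11 and 2.90. All db/db hearts lay above all db/+ hearts, and the treated and untreated hearts overlapped. In untreated against db/+ hearts it was the 1 gene of the 33 without overlap, as were 7.81% of all probes. Pfkfb1 was higher by 1.06 (SE 0.23) in untreated db/db hearts, 2.08-fold, with a limma adjusted p of 0.0144. In treated db/db hearts it was higher by 1.29 (SE 0.24), 2.44-fold, with an adjusted p of 0.00701, and between the db/db groups the difference was 0.23 (adjusted p = 0.858). Both calls held in all 15 fits that left out 1 array, with differences of 0.93 to 1.17 and 1.20 to 1.47. Of the 5 hepatocyte markers, 2 were higher in untreated and 0 were called in treated hearts against db/+. Their mean log2 ratio was 0.51 to 1.62 (median 1.15) in db/+, 1.30 to 5.32 (median 3.24) in untreated and 1.104 to 3.06 (median 1.27) in treated db/db hearts. Their part in the Pfkfb1 difference was not tested.

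Neither of its relatives among the 33 genes was called. Pfkfb2, the heart-type gene, was 2.94 ± 0.28 (SD, n = 5), 2.80 ± 0.08 (n = 5) and 2.87 ± 0.14 (n = 4) in db/+, untreated and treated hearts, with adjusted p of 0.514 and 0.792 against db/+. Pfkfb3, the inducible form, was -0.47 ± 0.14 (n = 5), -0.67 ± 0.51 (n = 5) and -0.78 ± 0.38 (n = 4) and was not called.

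Of the phosphofructokinase genes, Pfkl (liver-type subunit) was called in 1 comparison. Its log2 ratios were -1.26, -0.90, -1.33, -1.20 and -1.08 in db/+ hearts. They were -0.91, -1.02, -0.75, -0.76 and -0.38 in untreated, and -0.69, -0.48, -0.74, -0.72 and -0.75 in treated db/db hearts. The treated and db/+ hearts did not overlap, which held for 4 of the 33 genes (the called ones, 12.1%) and for 14.6% of all probes, while the untreated hearts overlapped the db/+ range in 2 values. Pfkl was higher by 0.49 (SE 0.13) in treated db/db hearts, 1.40-fold, with an adjusted p of 0.0348, and by 0.39 (SE 0.12) in untreated hearts, with an adjusted p of 0.0675. The first call was kept in 9 of 15 fits without 1 array. Pfkp, the platelet-type subunit, differed by 0.31 and 0.39 with adjusted p of 0.123 and 0.0754. Of its 2 dimmer probes, the brighter gave 0.50 (adjusted p = 0.240) and 0.33 (adjusted p = 0.461), and the dimmer 0.60 (adjusted p = 0.0534) and 0.95 (adjusted p = 0.00940). Pfkm, the muscle subunit, differed by 0.12 and 0.09 with adjusted p of 0.720 for both, over only 2 untreated hearts because its other spots were marked as outliers.

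**Figure D3:**
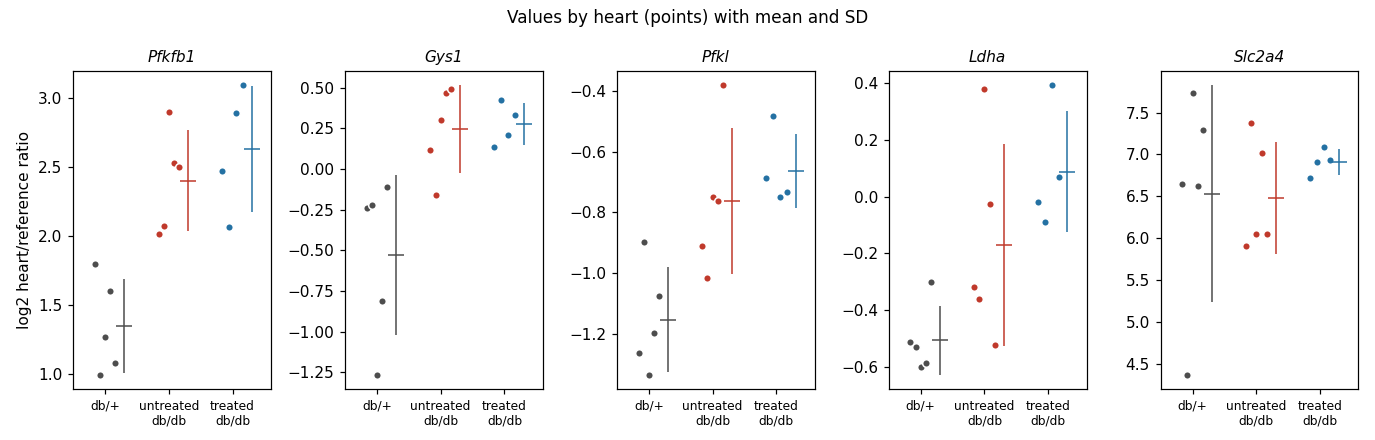
Log2 heart/reference ratio of each heart (points; treated replicates 3 and 4 as 1 point) with mean and SD, for the 4 called genes and Slc2a4, on axes of different range. Every db/db point lies above the db/+ points for Pfkfb1. The groups of Slc2a4 overlap, with 1 low db/+ ratio of 4.37 on the replicate 2 array.

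None of the genes from aldolase to triose phosphates was called. Aldoa, the muscle aldolase, was 1.57 ± 0.35 (SD, n = 5), 1.94 ± 0.36 (n = 5) and 2.06 ± 0.22 (n = 4), with differences from db/+ of 0.37 and 0.49 and adjusted p of 0.249 and 0.144; its spot was saturated on 1 db/+ and 1 untreated array. Aldoc, the brain-type aldolase, was -3.44, -3.49 and -3.73. Tpi1, for triose phosphate isomerase, was 0.15, 0.44 and 0.29, with an adjusted p of 0.168 for untreated against db/+ hearts. The probe named Gapdh, for the glyceraldehyde phosphate dehydrogenase often used as a loading control, had a mean heart signal of 268.5 and differed by -0.01 and 0.23 from db/+. Another probe, named LOC380687 in the files, lies in the same part of chromosome 6 by the array's own annotation, had a mean heart signal of 361000 and differed by 0.16 (adjusted p = 0.542) and 0.01 (adjusted p = 0.979). Both 60-base probes are shown because the name on the array and the brighter signal do not go together; capitals mark the 14 bases they share. The first covers 60 unbroken genome bases and the second spans 170.
Gapdh: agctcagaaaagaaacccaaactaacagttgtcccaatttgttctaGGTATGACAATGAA
LOC380687: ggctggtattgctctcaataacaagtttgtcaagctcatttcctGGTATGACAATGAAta

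Lower glycolysis, from phosphoglycerate kinase to pyruvate kinase, gave no call in any comparison. Pgk1 was -0.81 ± 0.10 (SD, n = 5), -0.81 ± 0.23 (n = 5) and -0.99 ± 0.07 (n = 4). The phosphoglycerate mutase genes Pgam1, of most tissues, and Pgam2, of muscle, differed by 0.13 and 0.23 in untreated and by 0.10 and 0.45 in treated hearts against db/+. Pgam2 ratios were spread widely over the db/+ arrays, from 2.54 to 5.63. Heart signal there ranged from 6.58 to 6.91 and reference signal from 1.29 to 4.25, as log2 minus the array's 75th percentile. Eno1, the enolase of most tissues, was -2.70, -2.54 and -2.83, and its treated and untreated hearts did not overlap, as in 4.58% of all probes. That difference was -0.29, with an unadjusted p of 0.0462 and an adjusted p of 0.558. Eno3, the muscle enolase, was 3.54 ± 0.54 (n = 5), 3.40 ± 0.39 (n = 5) and 3.54 ± 0.06 (n = 4). Pkm2, the file's name for pyruvate kinase of muscle, was -0.69, -0.54 and -0.67.

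The lactate dehydrogenase genes Ldha, the muscle-type subunit, and Ldhb, the heart-type subunit, had differences of opposite sign in untreated against db/+ hearts. Ldha ratios were -0.51, -0.53, -0.60, -0.58 and -0.30 in db/+ hearts. They were -0.32, -0.36, 0.38, -0.03 and -0.52 in untreated db/db hearts. They were -0.02, -0.09, 0.07, 0.07 and 0.39 in treated db/db hearts. All treated hearts lay above all db/+ hearts, and the untreated hearts spanned both ranges. Ldha was higher by 0.59 (SE 0.16) in treated hearts, 1.51-fold, with an adjusted p of 0.0407, and differed by 0.34 (SE 0.15) in untreated hearts, with an adjusted p of 0.193. The call was kept in 8 of 15 fits without 1 array, and a second Ldha probe gave 0.14 (adjusted p = 0.551) for the same comparison. Ldhb was 5.90 ± 0.19 (SD, n = 4), 5.41 ± 0.53 (n = 5) and 5.94 ± 0.19 (n = 4). Its difference of -0.48 in untreated hearts had an adjusted p of 0.205, and that of 0.53 between treated and untreated hearts an unadjusted p of 0.0382 and an adjusted p of 0.542.

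The balance of isoforms was tested within arrays, as the difference in log2 ratio between the muscle-type gene of a step (for lactate dehydrogenase the heart-type gene, Ldhb) and its partner, for 8 pairs in 3 comparisons. Of 24 exact two-sided permutation tests, 4 had an unadjusted p under 0.05 and none passed Benjamini-Hochberg adjustment over the 24, where the smallest value was 0.171. The smallest exact p that these designs allow is 0.00794 for 5 hearts against 5 or 4 and 0.0286 for 4 against 4, and larger where fewer hearts were measured, so a single test could not pass the adjustment on its own, whatever its size. Ldhb minus Ldha was 6.39 ± 0.08 (SD, n = 4) in db/+, 5.58 ± 0.57 (n = 5) in untreated and 5.85 ± 0.12 (n = 4) in treated db/db hearts. It was lower than in db/+ by -0.81 (exact p = 0.0238) and -0.54 (exact p = 0.0286), and no db/db heart reached the range of 6.32 to 6.47 of the 4 db/+ hearts measured. That range leaves out db/+ replicate 2, whose Ldhb spot was marked as an outlier, with heart signal 7.97 and reference signal 5.06. With marked spots kept, fewer of the 24 tests had an unadjusted p under 0.05. The others under 0.05 were Pfkm minus Pfkp in treated against db/+ hearts, -0.36 (exact p = 0.0286), and Pygm minus Pygb in treated against untreated hearts, -0.43 (exact p = 0.0286). Hk2 minus Hk1 was 1.77, 0.97 and 1.42, with an exact p of 0.0571 for untreated against db/+ hearts.

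At the entry of pyruvate into mitochondria no gene among the 33 was called by its brightest probe. Pdha1 and Pdhb, for the subunits of the first pyruvate dehydrogenase enzyme, differed from db/+ by 0.04 and -0.27 in untreated and by 0.10 and -0.02 in treated hearts. The kinase gene Pdk1 was 1.67 ± 0.10 (SD, n = 5), 1.75 ± 0.05 (n = 5) and 1.92 ± 0.15 (n = 4), with adjusted p of 0.607 and 0.0945 against db/+. Its dimmer second probe was higher in both db/db groups, by 0.46 (adjusted p = 0.00237) and 0.34 (adjusted p = 0.0170), so that the 2 probes of Pdk1 did not give the same call. Pdk2, the widely expressed kinase, was 3.79, 4.09 and 3.80 and was not called. Pdp1, the catalytic phosphatase that reactivates the complex, was the gene not named on the array. The files name a probe Ppm2c, an older symbol of Pdp1 in RefSeq, which the rule did not take in; its ratio was 1.46 ± 0.11 (n = 5), 1.16 ± 0.16 (n = 5) and 1.06 ± 0.06 (n = 4). Ppm2c was lower by -0.40 in treated db/db hearts (adjusted p = 0.0242) and differed by -0.30 in untreated hearts (adjusted p = 0.0590). Its second probe was lower in both, by -0.67 in treated (adjusted p = 0.0129) and by -0.73 in untreated hearts (adjusted p = 0.00616).

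In glycogen metabolism, Gys1 was higher in both db/db groups. Its log2 ratios in db/+ hearts were -0.24, -0.22, -1.26, -0.81 and -0.11. In untreated db/db hearts they were 0.12, -0.16, 0.30, 0.47 and 0.49, and in treated hearts 0.14, 0.42, 0.34, 0.33 and 0.21. All treated hearts lay above all db/+ hearts, 1 untreated heart fell within the db/+ range, and db/+ replicates 3 and 4 were lowest. Gys1 was higher by 0.77 (SE 0.21) in untreated hearts, 1.71-fold, with a limma adjusted p of 0.0375. In treated hearts it was higher by 0.80 (SE 0.22), 1.75-fold, with an adjusted p of 0.0374. Between the db/db groups it differed by 0.03 (adjusted p = 0.984). The first call was kept in 7 and the second in 11 of 15 fits without 1 array; without db/+ replicate 3 the first difference was 0.59. The glycogen phosphorylase genes Pygm, of muscle, and Pygb, of brain, differed from db/+ by 0.07 and 0.18 in untreated and by -0.13 and 0.24 in treated hearts, and were not called.

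Fbp2, for the muscle fructose bisphosphatase that opposes phosphofructokinase, depended on whether the reference channel was used. By ratio it was 5.45 ± 0.79 (SD, n = 5), 5.44 ± 0.56 (n = 5) and 5.39 ± 0.25 (n = 4), with differences of -0.01 and -0.06 from db/+ (adjusted p = 0.985 and 0.934). By heart signal alone (log2 minus the 75th percentile of the array) it was 0.23, 0.47, 0.54, 0.73 and 0.73 in db/+ hearts. The untreated hearts gave 2.06, 2.27, 2.05, 0.88 and 2.15, and the treated hearts 1.54, 1.36, 1.49, 1.55 and 1.30. On this scale all db/db hearts lay above all db/+ hearts, by 1.34 (adjusted p = 0.00264) in untreated and 0.89 (adjusted p = 0.0298) in treated hearts. The signal of the common reference, which is the same RNA on every array, was also higher on many db/db arrays: -6.02 to -3.99 on db/+, -4.83 to -2.50 on untreated and -4.23 to -3.68 on treated arrays.

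**Figure D4:**
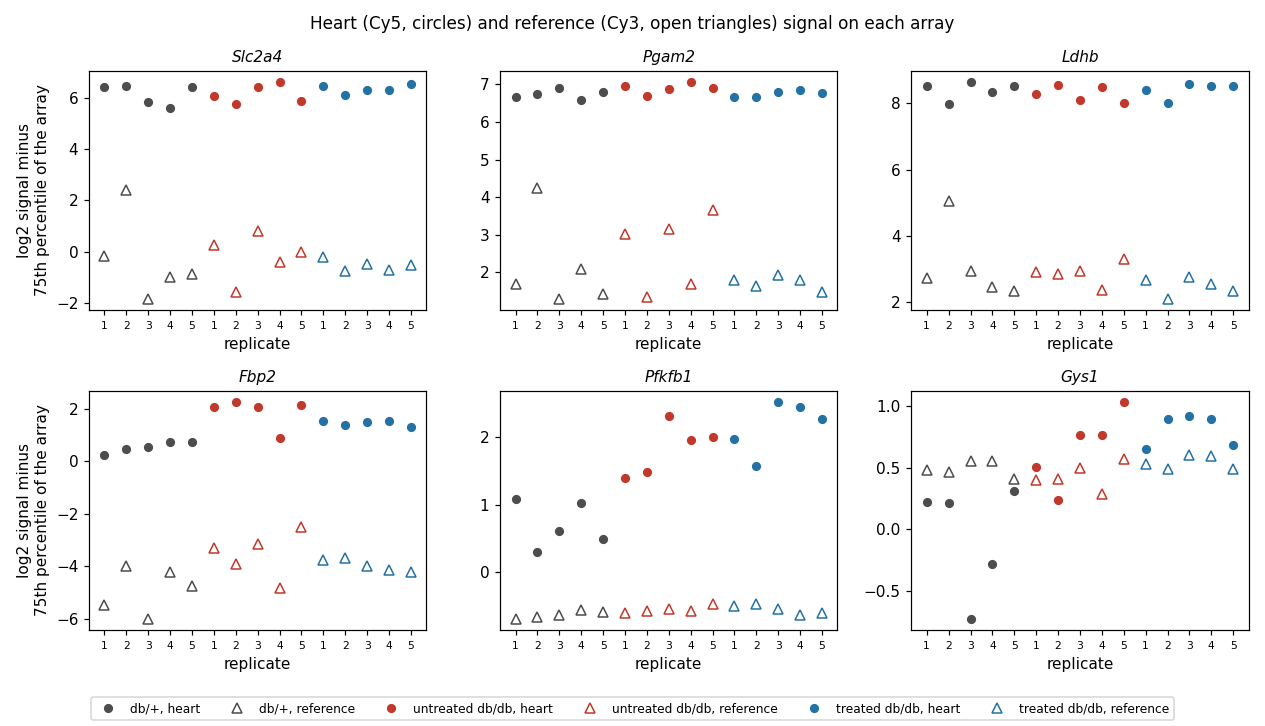
Heart signal (circles) and reference signal (open triangles) on each array, as log2 minus the array's 75th percentile in that channel, against replicate number, for 6 genes with axes of different range. For Slc2a4, Pgam2 and Ldhb the reference varies more than the heart and is highest on db/+ replicate 2; for Pfkfb1 and Gys1 the reference is nearly level (SD 0.0669 and 0.085). Spots marked as outliers are kept in both channels.

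The same comparison of channels was made for every gene, with spots marked as outliers kept. In 8 genes whose mean log2 ratio exceeded 3 (Slc2a4, Pfkm, Pgam2, Eno3, Ldhb, Pdk2, Pygm and Fbp2), the reference channel varied more over the arrays than the heart channel in 7, and was highest on db/+ replicate 2 in 6. Their median SD was 0.672 in the reference and 0.242 in the heart channel. In the other 25 genes the reference varied more in 6, and the median SDs were 0.111 and 0.262. Marked spots enter these spreads. On db/+ replicate 2, where both were marked, the reference signal was 4.75 for Pfkm (median over arrays 3.25) and 5.06 for Ldhb (median 2.74). Spreads without the marked spots were not computed. Slc2a4 heart signal ranged from 5.61 to 6.64 and its reference signal from -1.86 to 2.41. In the fit on heart signal alone, where marked spots were set missing, Slc2a4 differed by -0.01 (SE 0.20) and 0.20 (SE 0.21) from db/+, not called. Treated minus untreated was 0.34 for Hk2, 0.08 for Ldhb and -0.21 for Eno1 in that fit. By ratio these differences were 0.56, 0.53 and -0.29. The called genes kept their sign on this scale: Pfkfb1 was higher by 1.13 (adjusted p = 0.00806) and 1.37 (adjusted p = 0.0031), and Gys1 by 0.71 (adjusted p = 0.0464) and 0.83 (adjusted p = 0.0249). Pfkl was higher by 0.56 in treated hearts (adjusted p = 0.0162), and Ldha, at 0.36, was no longer called (adjusted p = 0.147). Pdk1, whose brightest probe was not called by ratio, was higher by 0.40 in treated against db/+ hearts (limma adjusted p = 0.0300). On this scale 3, 0 and 5 of the 33 genes were called in untreated against db/+, treated against untreated and treated against db/+ hearts, and 6.85%, 0.315% and 10.1% of all probes.

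RefSeq lists start sites for 31 of the 34 genes, and the 250 bases before each start (mouse build GRCm38.p6) were searched on both strands. The letters ACGTG or GCGTG, the core of the element bound by hypoxia-inducible factors, occurred in 37 of the 50 windows of these genes (74%) and in 38.6% of all 32851 windows. AGGTCA, the half-site of nuclear receptors such as PPAR gamma, occurred in 8 windows (16%) and in 14% of all. CACGTG holds ACGTG on both strands and was counted once. Windows of called genes are shown because these members passed in the same direction; capitals mark ACGTG or GCGTG on either strand, so CACGT and CACGC are the same letters on the other strand. Ldha held 3 such stretches before the first of its 2 starts, Pfkl 1 and Gys1 none. Pfkfb1 has 4 listed starts, and the window shown, before the second, is the one that held a match. A match is a run of letters and not a bound site.
Pfkfb1, chrX:150587993-150588242, + strand: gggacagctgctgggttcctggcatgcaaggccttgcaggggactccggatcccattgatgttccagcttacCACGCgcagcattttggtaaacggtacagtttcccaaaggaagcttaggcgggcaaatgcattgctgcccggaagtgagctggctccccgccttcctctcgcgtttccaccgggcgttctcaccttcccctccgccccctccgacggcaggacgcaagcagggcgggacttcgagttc
Gys1, chr7:45434589-45434838, + strand: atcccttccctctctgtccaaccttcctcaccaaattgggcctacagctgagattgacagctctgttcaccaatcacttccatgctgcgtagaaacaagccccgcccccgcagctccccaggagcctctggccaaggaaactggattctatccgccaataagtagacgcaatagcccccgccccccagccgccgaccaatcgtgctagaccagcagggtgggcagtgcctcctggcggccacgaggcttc
Pfkl, chr10:78009808-78010057, - strand: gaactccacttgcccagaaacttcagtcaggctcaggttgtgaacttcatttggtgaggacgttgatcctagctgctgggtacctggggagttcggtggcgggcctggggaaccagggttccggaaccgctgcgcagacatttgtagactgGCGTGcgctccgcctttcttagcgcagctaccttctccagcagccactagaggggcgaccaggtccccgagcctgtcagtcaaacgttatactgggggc
Ldha, chr7:46845554-46845803, + strand: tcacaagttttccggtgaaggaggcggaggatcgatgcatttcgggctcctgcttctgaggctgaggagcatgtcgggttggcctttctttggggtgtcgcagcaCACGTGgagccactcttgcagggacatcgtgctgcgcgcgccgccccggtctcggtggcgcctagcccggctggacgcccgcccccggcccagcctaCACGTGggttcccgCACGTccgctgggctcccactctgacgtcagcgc

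Of 61 further genes of glucose metabolism, 57 were named on the array and 54 were tested. In untreated db/db against db/+ hearts 9 were higher and 1 was lower (18.5% of the 54, against 7.76% of all probes). In treated against db/+ hearts 4 were higher and 1 was lower (9.26%, against 8.7% of all probes), and none was called between the db/db groups. The list was not tested as a set. Gpd1, the cytosolic glycerol 3-phosphate dehydrogenase that draws on triose phosphates, was higher by 0.78 (adjusted p = 0.0254) and 0.92 (adjusted p = 0.00851), and none of the db/db hearts measured (n = 3 and 4) overlapped the db/+ hearts (n = 4). Txnip, an inhibitor of glucose uptake whose transcription follows glucose, was higher by 1.15 (adjusted p = 0.0201) and 1.27 (adjusted p = 0.0155), with 1 db/+ heart at 1.72 inside the db/db range. Dlat, for the second enzyme of pyruvate dehydrogenase, was higher by 0.46 (adjusted p = 0.0336) and 0.53 (adjusted p = 0.0227). These 3 genes were called in both comparisons with db/+.

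The others were called in 1 comparison. Higher in untreated db/db hearts were Phka2, a phosphorylase kinase subunit, by 0.53, Mlxip, a glucose-sensing transcription factor, by 0.48, Slc2a13, a myo-inositol carrier, by 0.60, and Fbp1, the liver fructose bisphosphatase, by 4.25 (adjusted p = 0.0261). Fbp1 ranged from -2.26 to 4.34 over the untreated hearts, from -4.24 to -2.31 over the db/+ hearts and from -2.75 to 0.85 over the treated arrays. The 5 hepatocyte markers were positive in the same comparison, and their part in the Fbp1 difference was not tested. Pfkfb4, a further PFKFB gene, was lower by -0.49 in untreated hearts (adjusted p = 0.0201). In treated against db/+ hearts the phosphoglucomutase gene that the files name Pgm2 (now Pgm1) was higher by 0.63 (adjusted p = 0.0130). Pck2, the mitochondrial form of phosphoenolpyruvate carboxykinase, was lower by -0.44 (adjusted p = 0.0185). Pygl and Pklr, the liver forms of glycogen phosphorylase and pyruvate kinase, made up the 12 called in any comparison. Pdk4, the pyruvate dehydrogenase kinase induced by fasting and fatty acids, was 6.55 ± 0.35 (SD, n = 5) in db/+, 7.54 ± 0.69 (n = 5) in untreated and 6.93 ± 0.29 (n = 4) in treated db/db hearts. Its difference of 0.99 in untreated hearts had an adjusted p of 0.0503, just outside the threshold.

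**Figure D5:**
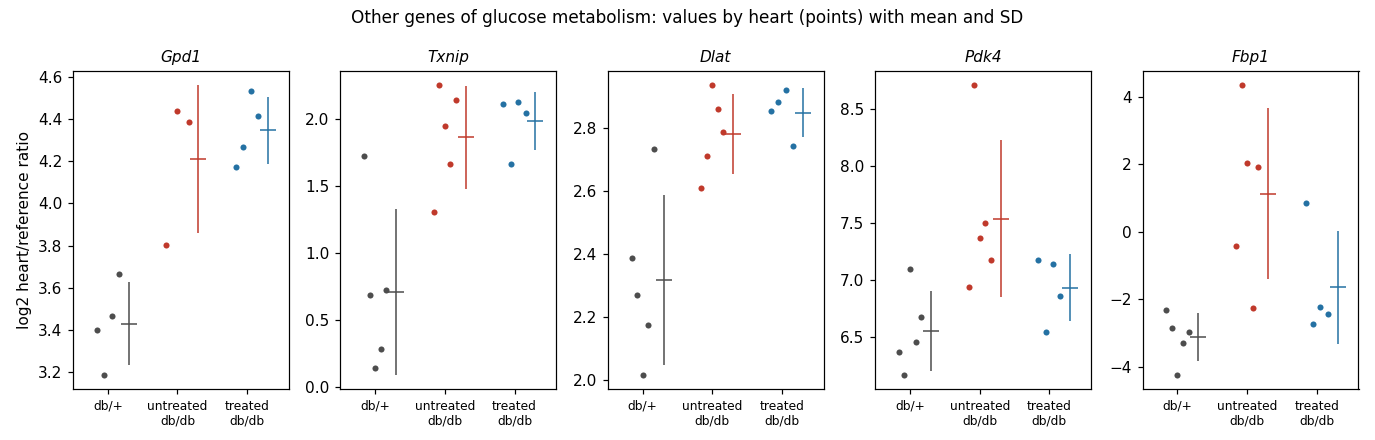
Log2 heart/reference ratio of each heart (points; treated replicates 3 and 4 as 1 point) with mean and SD for 5 further genes of glucose metabolism, on axes of different range. Gpd1 is higher in every db/db heart measured, Fbp1 is scattered over the untreated hearts from -2.26 to 4.34, and Pdk4 is highest in 1 untreated heart at 8.71.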

How the data were processed

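Whole-heart RNA of 15 mice (5 db/+, 5 untreated db/db, 5 rosiglitazone-treated db/db) was hybridised in Cy5 against Cy3 reference RNA on 4-array slides. The authors deposited scanner files made with Agilent Feature Extraction 9.5.1, which hold background-subtracted, dye-normalized intensity per channel and a log10 ratio of heart over reference. The deposited value table held the same log10 ratios. These were turned into log2 ratios, control spots were removed, spots marked as outliers were set missing, and replicate spots were averaged within each probe. A probe was tested if its heart signal was well above background on at least 4 of 5 arrays of a group. Groups were compared with limma 3.58.1 in R 4.3.3 (lmFit and eBayes, 14 samples, residual df 11), which was tested on simulated data. The methods name one-way ANOVA, run here as limma's moderated F, and SAM, not run. Sex and age were not given in the sources used here. The p-values measure the spread between samples of a group, in which variation of hearts, arrays and the reference channel cannot be told apart. The number of arrays limits precision. The genes and lists were chosen with earlier results of these data known. Every member is described by its brightest probe, hearts are listed for called members and Slc2a4, and of the further genes Pdk4 and up to 10 called ones by smallest p are named, Pygl and Pklr being added after their values were seen. Alternatives changed the background correction, scaling, channel, filter, slide, weights, threshold, probe and replicates.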

Additional observations from a re-analysis of the deposited data

Results flagged for a closer look

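Of 106 sets of 4 or 5 hearts from 1 group, 1 for each gene and group, 5 held a heart far from the others of its group, and chance alone marks about 1 in 20. The treated replicate 5 heart had an Aldoa ratio of 2.40, against 1.94 to 1.97 in the others. Treated replicate 2 had an Aldoc ratio of -3.93, against -3.68 to -3.64, and a Pdk2 ratio of 4.09, against 3.68 to 3.73. For Eno1, db/+ replicate 2 stood at -2.25, against -2.94 to -2.75. For Pkm2, untreated replicate 2 stood at -1.21, against -0.47 to -0.23. None of these genes was called in any comparison.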

How the results depend on the processing

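Under every alternative run, called genes of the 33 were higher than in db/+ hearts and none was called between the db/db groups. In untreated against db/+ hearts the 2 calls became 6 with normexp and loess, 4 with slide as a random block or with the mean of a gene's probes, 1 without the filter, with only the 2 groups fitted or with array weights, and 0 with slide as a fixed block. In treated against db/+ hearts the 4 calls became 2 without the filter, 7 with slide as a random block or at an adjusted p under 0.10, and 0 with slide as a fixed block. The 2 members of the F test became 4 on heart signal alone, at an adjusted p under 0.10, with the mean of probes or with treated replicates 3 and 4 as separate mice, 1 without the filter, and 5 and 0 with slide as a random and a fixed block. The 4 isoform tests became 2 on heart signal alone and 1 with marked spots kept, an alternative chosen after seeing the data. Leaving out 1 array gave 1 to 3, 1 to 4, 1 to 3 and 2 to 4 for these counts. The random slide block had a negative correlation within slides (-0.114), so its higher counts do not show that calls outlast slide differences.

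The sign of Slc2a4 was not fixed in untreated against db/+ hearts: 0.67 with normexp and loess, 0.0491 with slide as a random block, 0.0454 with array weights, and -0.59 to 0.25 without 1 array. In treated against db/+ hearts it was -0.57 with slide as a fixed block and -0.16 to 0.68 without 1 array. With slide as a fixed block, treated minus untreated became -0.24 for Pfkfb1, -0.20 for Gys1 and -0.0136 for Pfkl, and treated minus db/+ became -0.0051 for Gys1. Gys1 in treated against untreated hearts ranged from -0.0693 to 0.0932 without 1 array. The cause of these changes was not tested.

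Replicate numbers did not pair the hearts: over 15 same-numbered pairs r ran from -0.189 to 0.047. With the replicate number as a block, 1 member was called in untreated against db/+ hearts and 1 in the F test. Dim probes and saturated spots limit what ratios resolve.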
